A study of Mus musculus with 7 samples.

Results

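The genes of platelet-derived growth factor (PDGF) signalling comprised 2 receptor genes, Pdgfra and Pdgfrb, and 4 ligand genes, Pdgfa, Pdgfb, Pdgfc and Pdgfd. They were taken as every probe set that the platform annotation assigns to exactly 1 of these 6 genes, which gave 14 of the 45101 probe sets and 6 of the 18193 genes on the array. Pdgfra and Pdgfd had 3 probe sets each and the other genes 2 each. RNA was measured on 7 single-channel Affymetrix mouse arrays: 2 of mouse basal cell carcinoma, 2 of normal epidermis of newborn (P0) mice, and 1 each of a cell line, PDKC1, at 0 h (no cyclopamine), 6 h and 10 h. PDKC1 is labelled as derived from this tumour type in the mouse. Cyclopamine is a plant alkaloid that inhibits Smoothened, the signal transducer of the Hedgehog pathway. The PDKC1 cells had been grown in 6-well plates. Each tissue array was made from 100 ng of RNA and each PDKC1 array from 2000 ng, so tissue and cell line also differed in how much RNA was labelled. The strain, genotype and age of the tumour-bearing mice, the number of animals behind each array and the cyclopamine dose are not stated in the labels.

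PDGF ligands are secreted dimers that bring together receptor tyrosine kinases at the cell surface. PDGF-A and PDGF-C act mainly through the alpha receptor, and PDGF-B and PDGF-D mainly through the beta receptor, although PDGF-B binds both. PDGF-C and PDGF-D are released as latent proteins that a protease must cut, whereas PDGF-A and PDGF-B are matured inside the cell by furin-type convertases. In skin the usual arrangement is paracrine: keratinocytes, endothelium and platelets make ligands, dermal fibroblasts and their precursors carry the alpha receptor, and pericytes and other vascular mural cells carry the beta receptor.

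Values were linear signal intensities, and differences were taken on log2(intensity + 16), where 16 is an offset that damps differences between very dim values. As a mark for dim signals, the median probe set of each array is used, which stood at 118.2 and 127.9 for the tumours, 71.0 and 75.3 for the epidermis, and 72.1 to 78.1 for PDKC1. The 3' to 5' ratio of the Actb control probe sets, which climbs when RNA or its labelled copies are short, was 11.3 and 93.1 in the tumours, 3.98 and 2.84 in the epidermis and 1.15 to 1.21 in PDKC1. That of Gapdh was 10.6 and 15.4 in the tumours, 5.27 and 4.52 in the epidermis and 0.699 to 0.741 in PDKC1. The part of these ratios in the differences reported here was not tested. Basal keratinocyte markers were present on every array, with a summed intensity of 79711 and 59339 in tumours, 74368 and 90924 in epidermis and 94089 to 98173 in PDKC1. Precision is limited by having few arrays, and since no label ties the arrays of a tissue to separate animals, each p-value reflects array-to-array spread that may be technical. Age also cannot be told apart from disease, since all epidermis was newborn.

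Both receptor genes were higher in the carcinomas than in newborn epidermis, and they were the members with the largest differences. Pdgfrb, the beta receptor, had intensities of 2116 and 1631 on the tumour arrays, against 67.8 and 47.6 on the epidermis arrays. Both epidermis values lay under the median probe set of their array, while both tumour values were far over it. The difference was 4.68 ± 0.32 log2 units (SE, 2 arrays per tissue; adjusted p = 0.000467 by limma over all 18193 genes), a 25.7-fold difference of intensity + 16. Pdgfra, the alpha receptor, had 1068 and 3067 in the tumours, against 173 and 121 in the epidermis. The groups did not overlap here either, but the tumours were far apart, and the mean was 2067 ± 1414 in tumour and 147 ± 37 in epidermis (SD, n = 2 each). The difference was 3.51 ± 0.49 (adjusted p = 0.00336), or 11.4-fold, and it was 2.75 without tumour 2 and 4.26 without tumour 1. In a bulk sample a larger share of receptor-bearing cells and more receptor RNA per cell cannot be told apart.

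Of the ligand genes, Pdgfa alone was called higher. Pdgfa, the main ligand of the alpha receptor in skin epithelium, had 2362 and 3293 in the tumours, against 1184 and 1482 in the epidermis. The lower tumour array was still above the higher epidermis array. Its difference was 1.06 ± 0.25 (adjusted p = 0.0205), or 2.09-fold. That call was lost when each array was centred on its median (0.32, adjusted p = 0.351), without the variance trend (adjusted p = 0.0729), and without epidermis array 1 (adjusted p = 0.216) or 2 (adjusted p = 0.116).

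Pdgfc, whose product is the latent alpha receptor ligand, was bright on every array and was not called. It had 4029 and 2496 in the tumours, against 1933 and 2363 in the epidermis. The groups did not overlap, but the lower tumour value stood close to the higher epidermis value. The difference was 0.57 ± 0.28 (95% confidence interval -0.10 to 1.23; adjusted p = 0.183), and it turned to -0.18 (adjusted p = 0.693) with each array centred on its median. Without tumour 2 it was called, at 0.91 (adjusted p = 0.00705).

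Pdgfb, the ligand that recruits pericytes to vessels, was also not called. It had 657 and 421 in the tumours, against 744 and 757 in the epidermis. Both tumour values were below both epidermis values, by a difference of -0.50 ± 0.29 (95% confidence interval -1.19 to 0.19; adjusted p = 0.254). With centring on the median it was called lower, at -1.22 (adjusted p = 0.0237), and so it was without tumour 1, at -0.81 (adjusted p = 0.0221).

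Pdgfd, the latent beta receptor ligand, was dim everywhere. Its representative probe set had 5.20 and 14.7 in the tumours, against 62.6 and 37.1 in the epidermis. All 4 values lay under the median probe set of their array. The difference of -1.34 ± 0.48 had an unadjusted p of 0.0268 and was not called (adjusted p = 0.0778 by limma), although it was with quantile normalization (-1.62, adjusted p = 0.0467) and with centring (-1.69, adjusted p = 0.0277). Its size hangs on the offset, and was -0.62 with an offset of 64.

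In all, 3 of the 6 genes were called higher, where 16.6% of all genes were, and 0 were called lower, where 12.5% of all genes were. At an unadjusted p under 0.05, 1 member was lower, where 17.7% of all genes were. The scale of the arrays matters for these counts: the median difference over all genes was 0.09 as deposited, -0.19 with quantile normalization and -0.48 with centring. Over all genes the calls were 3015 higher and 2267 lower as deposited, 2158 and 2699 with quantile normalization, and 1395 and 4861 with centring. Leaving out either epidermis array, which leaves 1 in that group, also cut the calls over all genes in both directions. Counts given below with an epidermis array left out are to be read beside that. Pdgfrb differed by 4.57 with quantile normalization and 3.98 with centring, and Pdgfra by 3.19 and 2.78, and both were called under each. Relative to the median of all genes, Pdgfrb lay 4.59, 4.76 and 4.47 higher on the 3 scales and Pdgfra 3.42, 3.38 and 3.27 higher. On that footing Pdgfa lay 0.98, 1.31 and 0.80 higher and Pdgfc 0.48, 0.92 and 0.30 higher, while Pdgfb lay at -0.59, -0.61 and -0.74 and Pdgfd at -1.43, -1.43 and -1.21.

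**Figure D1:**
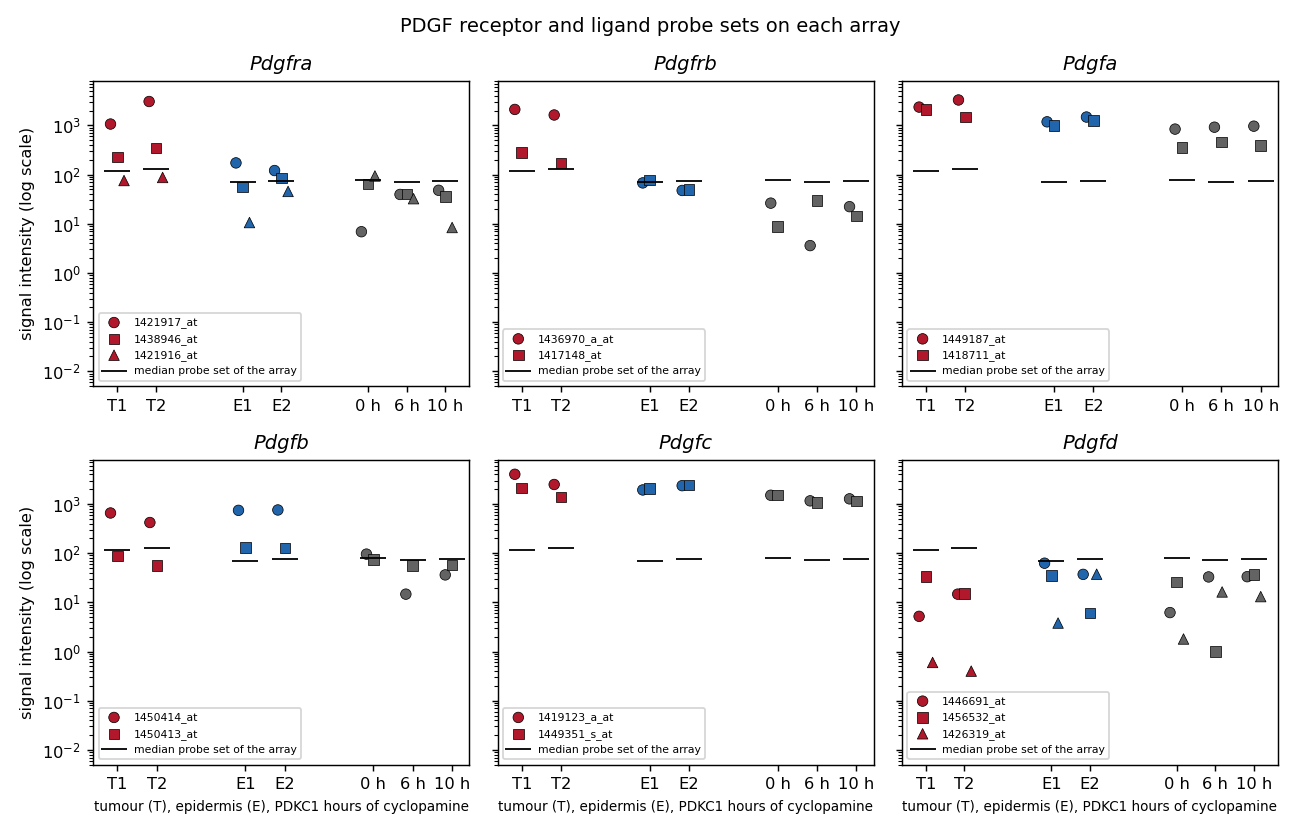
Signal intensity (log scale) of each of the 14 PDGF probe sets on the tumour arrays (T1, T2), the epidermis arrays (E1, E2) and PDKC1 at 0, 6 and 10 h of cyclopamine; each marker shape is 1 probe set and the dash is the median probe set of that array. The brightest Pdgfra and Pdgfrb probe sets stand at 1068 to 3067 in the tumours and at or under 173 in epidermis and PDKC1, whereas Pdgfa and Pdgfc lie over the median on all 7 arrays and Pdgfd under it.

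The probe sets of a gene did not all give the same size of difference, and for Pdgfc and Pdgfd not the same sign. A probe set is a group of short probes for 1 stretch of a transcript, so differences rather than levels are compared here between the sets of a gene. Levels served to pick the set that stood for a gene, to mark dim and bright signals, and in the summed intensities, which the brightest sets lead. The second Pdgfrb probe set, 1417148_at, had 283 and 173 in the tumours, against 78.5 and 49.9 in the epidermis, a difference of 1.59 ± 0.47 (adjusted p = 0.0423 by limma over the 45037 non-control probe sets). That is well under the 4.68 of 1436970_a_at, which stood for the gene. The choice of that set used the tumour arrays, and on both epidermis arrays 1417148_at was the brighter. For Pdgfra, 1438946_at had 228 and 351 in the tumours, against 55.9 and 85.0 in the epidermis (1.81 ± 0.44, adjusted p = 0.0204). The dimmest Pdgfra set, 1421916_at, had 75.8 and 87.5 in the tumours, against 10.6 and 45.5 in the epidermis (1.27 ± 0.58, adjusted p = 0.158). All 5 receptor probe sets thus had both tumours above both epidermis arrays.

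Among the ligands, the second Pdgfa set, 1418711_at, had 2121 and 1482 in the tumours, against 1002 and 1263 in the epidermis. It pointed the same way as 1449187_at, the set that stood for the gene, and was not called (0.65 ± 0.27, adjusted p = 0.118). The second Pdgfc set, 1449351_s_at, had 2109 and 1384 in the tumours, against 2048 and 2463 in the epidermis. Here the groups overlapped and the difference was -0.39 ± 0.27 (adjusted p = 0.348), against 0.57 for 1419123_a_at. By Affymetrix naming an "_s_at" set can match transcripts of more than 1 gene, and an "_a_at" set several transcripts of 1 gene. The second Pdgfb set, 1450413_at, was at 86.9 and 55.8 in the tumours, against 130 and 127 in the epidermis (-0.75 ± 0.47, adjusted p = 0.294). The other Pdgfd sets, 1456532_at and 1426319_at, did not exceed 37.4 on any tissue array and differed by 0.24 ± 0.56 and -0.98 ± 0.51.

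Over the 14 probe sets, 8 had both tumours above both epidermis arrays, 4 had them below and 2 overlapped. Among all probe sets 38.4% had both tumours above and 25.0% both below, so the share below among the members is close to that of the whole array. By limma 5 of the 14 were called higher, where 18.3% of all probe sets were, and 0 lower, where 9.17% were, with 1 lower at an unadjusted p under 0.05, where 13.4% were. The 5 were 1436970_a_at and 1417148_at of Pdgfrb, 1421917_at and 1438946_at of Pdgfra, and 1449187_at of Pdgfa. With either epidermis array left out, 2 were called, and neither 1417148_at nor 1438946_at was called with quantile normalization or centring.

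**Figure D2:**
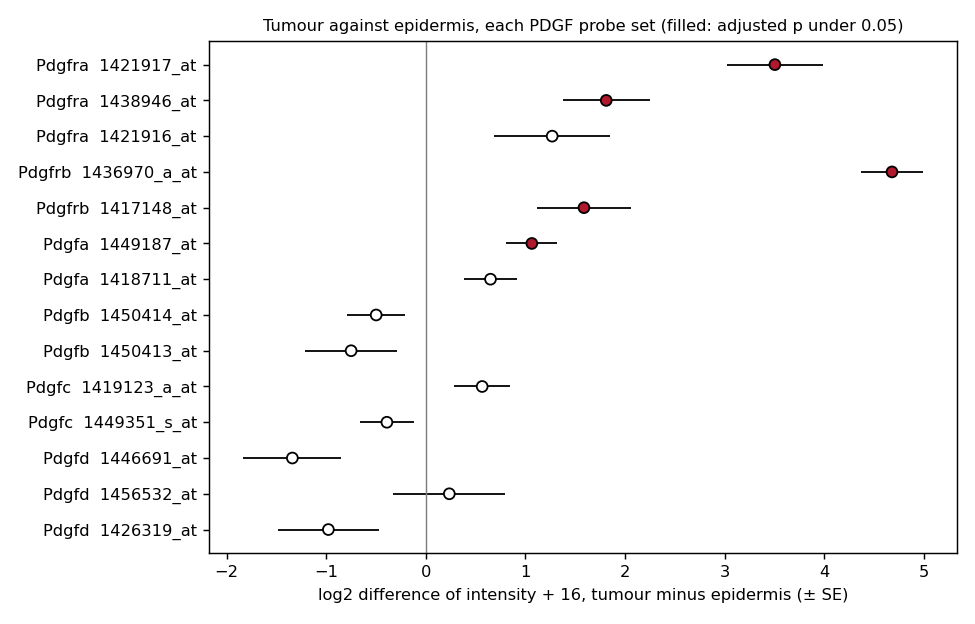
Difference of log2(intensity + 16), tumour minus epidermis, for each of the 14 probe sets (points; bars are the SE of the limma fit, 2 arrays per tissue; filled points have an adjusted p under 0.05 over all non-control probe sets). All 5 receptor probe sets lie right of 0, from 1.27 to 4.68, while the 9 ligand probe sets spread from -1.34 to 1.06.

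Pdgfra was higher in tumour 2 and Pdgfrb in tumour 1. Tumour 2 minus tumour 1 was 1.51 log2 units for the representative Pdgfra set and 0.59 and 0.17 for the other Pdgfra sets, whereas it was -0.37 and -0.66 for the Pdgfrb sets. Over all genes the absolute gap between the tumours had a median of 0.44, and 1.28 was the 90th percentile, so Pdgfra was past that value and Pdgfrb was not. The gap was 0.48 for Pdgfa, -0.62 for Pdgfb, -0.69 for Pdgfc and 0.53 for Pdgfd. With 1 array per tumour these gaps have no test. The median gap was -0.23 for fibroblast markers and -0.53 for mural cell markers, the Actb ratio was 11.3 in tumour 1 and 93.1 in tumour 2, and the Gapdh ratio 10.6 and 15.4.

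Pdgfra and Pdgfa, a receptor gene and a ligand gene called higher in the tumours, are shown from 250 bases before to 50 after a transcript start. Bases run 5' to 3' on the gene's strand (RefSeq, GRCm38.p6). Pdgfrb was left out of the promoter search, and no promoter sequence of Pdgfb was at hand. Both genes lie on chromosome 5, Pdgfra at chr5:75151322-75198206 and Pdgfa at chr5:138976014-139000792, and both windows lie inside the annotated gene span, since they belong to a start downstream of the outermost one. Capitals mark matches to the motifs searched on both strands: the GLI consensus GACCACCCA, bound by the transcription factors of the Hedgehog pathway, the GC box GGGCGG, and the TATA box TATAAA.
Pdgfra, chr5:75152001-75152300, plus strand: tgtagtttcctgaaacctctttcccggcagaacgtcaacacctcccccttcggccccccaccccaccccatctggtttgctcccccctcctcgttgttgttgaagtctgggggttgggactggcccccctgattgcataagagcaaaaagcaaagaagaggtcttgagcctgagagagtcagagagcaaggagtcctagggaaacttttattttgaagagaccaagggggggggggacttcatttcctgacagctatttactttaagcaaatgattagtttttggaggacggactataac
Pdgfa, chr5:138994895-138995194, minus strand: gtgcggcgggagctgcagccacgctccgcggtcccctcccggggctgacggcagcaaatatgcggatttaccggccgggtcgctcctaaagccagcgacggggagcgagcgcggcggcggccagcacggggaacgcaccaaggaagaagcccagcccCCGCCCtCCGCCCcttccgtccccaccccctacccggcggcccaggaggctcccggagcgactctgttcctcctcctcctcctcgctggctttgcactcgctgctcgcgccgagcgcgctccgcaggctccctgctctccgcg

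The Pdgfra window held none of the 3 motifs. The Pdgfa window held 2 GC boxes on the reverse strand, beginning at bases 158 and 165 of the window, and a second Pdgfa window, chr5:138994232-138994531, held 1. Among the 32851 promoter windows searched, 35.7% held a GC box, 13.6% a TATA box and 0.253% the exact GLI consensus. The GLI consensus was in none of the 5 windows of Pdgfra, Pdgfa, Pdgfc and Pdgfd, and the TATA box was in that of Pdgfd. Bases G and C made up 51% of the Pdgfra window and 73.3% and 67% of the Pdgfa windows, against a median of 52.7% over all windows. No match says only that these letters are not in these windows.

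Genes that act with PDGF on the same pathway were looked at in lists chosen with earlier results of these data known, by count and median, without a test of the list. Over all genes 16.6% were called higher and 12.5% lower. Of 5 co-receptors and binding proteins 3 were higher, with a median difference of 1.35, beside 0.09 over all genes. They were Nrp1, the semaphorin and VEGF co-receptor that also binds PDGF (2590 and 1290 in the tumours, against 500 and 302 in the epidermis; 2.19 ± 0.40, adjusted p = 0.00817), Sparc, a matrix protein that binds PDGF-B (1.64 ± 0.20), and Pdgfrl, a receptor-like gene (1.35 ± 0.37). Without epidermis array 2 none of the 3 was called. Of 7 proteases that process PDGF 2 were higher and 2 lower (median 0.72). With the mean of each gene's probe sets 0 were called higher and 1 lower. The counts were 1 and 2 with quantile normalization, and 1 and 3 with centring. The convertase gene Pcsk5 differed by 3.90 ± 0.46 and Pcsk6, a related convertase, by -2.91 ± 0.30. Plau, which encodes urokinase, an activator of PDGF-D, was dim, at 9.10 and 4.90 in the tumours, against 85.1 and 41.1 in the epidermis (-1.73 ± 0.49, adjusted p = 0.0382). Plat, which encodes the tissue plasminogen activator that cuts PDGF-C, was the other called higher.

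Inside the cell genes were called in both directions. Of 17 receptor adaptors and effectors 5 were higher and 2 lower (median 0.42), the lower share being near the 12.5% of all genes. Centring each array on its median turned this to 1 higher and 6 lower, and the mean of each gene's probe sets to 5 and 0. Pik3r1, the regulatory subunit of PI3-kinase that docks on activated PDGF receptors, had 2292 and 2074 in the tumours, against 734 and 742 in the epidermis (1.54 ± 0.21, adjusted p = 0.00284). The adaptor genes Nck1 and Grb2 were lower, by -2.88 ± 0.28 and -1.36 ± 0.26, but neither was called lower with the mean of each gene's probe sets. Of 12 attenuators of receptor signalling 4 were higher (median 0.50), among them Spry2 (1.51 ± 0.26), Spred1 (1.34 ± 0.21) and the ubiquitin ligase gene Cblb (0.93 ± 0.21), and 0 were called higher with centring. Adaptors and attenuators both lost calls with either epidermis array left out, as did the whole set of genes.

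The nearest relatives of the members were the related receptor and ligand families. Of 6 related receptor tyrosine kinases 2 were higher (median 0.35), the VEGF receptor genes Flt1 (2.34 ± 0.44, adjusted p = 0.00915) and Flt4 (1.92 ± 0.44). Of 8 related ligands 2 were higher and 1 lower (median 0.51): Vegfc, a lymphatic growth factor, differed by 1.97 ± 0.43, the stem cell factor gene Kitl by 0.84 ± 0.22, and Il34, a ligand of the CSF1 receptor, by -2.45 ± 0.34. The shares of related ligands are near the 16.6% and 12.5% of all genes. With either epidermis array left out, 0 genes of both families were called higher. The 3 measured Hedgehog targets were all higher: Gli1 by 3.04 ± 0.28, Ptch1 by 1.43 ± 0.27 and Hhip by 6.89 ± 0.42. With centring the median turned negative for proteases (-0.02), adaptors (-0.32), attenuators (-0.24), related receptors (-0.36) and related ligands (-0.12), where that of all genes was -0.48. The size for Hhip leans on the offset, its epidermis values being 46.5 and 18.3.

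Most fibroblast markers, and some of those of mural cells and endothelium, were called higher on the arrays where the receptors were, where 16.6% of all genes were called higher and 12.5% lower. Of 13 fibroblast markers 11 were higher (median 2.80), among them Col1a1 (4.19 ± 0.37), Thy1 (3.35 ± 0.28) and Dpt (3.27 ± 0.30). Their summed intensity was 92896 and 112186 in the tumours, against 22219 and 21130 in the epidermis. Of 12 mural cell markers 6 were higher (median 1.20), including the pericyte genes Rgs5 (3.51 ± 0.53), Abcc9 (3.39 ± 0.33) and Cspg4 (3.12 ± 0.36). The other 6 were not called, and of these Mcam (-1.49, adjusted p = 0.0688) and Notch3 (-0.79, adjusted p = 0.106) had both tumours below both epidermis arrays. With centring 2 mural markers were called lower, and with quantile normalization 1. The mural sum was 8112 and 5968 in the tumours, against 3123 and 2837 in the epidermis. Of 12 endothelial markers 5 were higher (median 1.32), with Vwf at 3.04 ± 0.43, Tek at 2.39 ± 0.45 and Flt1, also listed above, at 2.34, the last 2 against epidermis values of 1.80 to 18.8, where the offset of 16 largely sets the size, and a sum of 2613 and 1922 in the tumours, against 784 and 674 in the epidermis. Without epidermis array 1, 7 fibroblast and 1 endothelial marker were called, and without array 2, 8 and 2. The part of these cells in the receptor differences was not tested. No marker of these lists was at 0 on any array.

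Markers of other cell types were counted in the same way. Of 6 dermal papilla markers 1 was higher (median 0.38), the gene Crabp1 (2.32 ± 0.63), and of 5 adipocyte markers 2 were (median 0.64), Fabp4 (1.97 ± 0.47) and Adipoq (1.68 ± 0.44). The first share is that of all genes, and in both lists 0 were called with quantile normalization, centring, or with tumour 1 or either epidermis array left out. Schwann cells were marked by 5 genes, 3 higher and 1 lower (median 2.88), led by Egfl8 (3.47 ± 0.44), S100b (3.18 ± 0.51) and Cdh19 (2.88 ± 0.45). Of 10 macrophage markers 2 were higher and 1 lower (median -0.37): Mrc1 by 1.18 ± 0.28, Lyz2 by 1.13 ± 0.32 and Adgre1 by -1.23 ± 0.28. These shares are near those of all genes, and the counts were 0 and 0 with either epidermis array left out, 0 and 3 with centring, and 3 and 3 without tumour 1. Of 5 platelet markers, a cell rich in PDGF protein, 1 was higher and 1 lower (median -0.02), Pf4 by 2.52 ± 0.37 and Gp1bb by -1.12 ± 0.27. For so few genes these shares are near the 16.6% and 12.5% of all genes. Of 6 skeletal muscle markers 2 were higher (median 2.77), Myh1 (7.58 ± 0.53) and Tnnt3 (3.44 ± 0.76), with a sum of 14672 and 2807 in the tumours, against 454 and 439 in the epidermis. That median was 0.54 without tumour 1, and 5 of the 6 were called without tumour 2 and 1 with either epidermis array left out. The epidermis values of Egfl8, Myh1 and Tnnt3 were 2.10 to 7.40, so the offset largely sets the size of their differences. Of 6 basal keratinocyte markers 1 was lower (median 0.30), Krt14 by -1.34 ± 0.35, but with quantile normalization 2 were higher and 0 lower. With centring the median was -0.44 for these and -0.23 for dermal papilla markers.

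**Figure D3:**
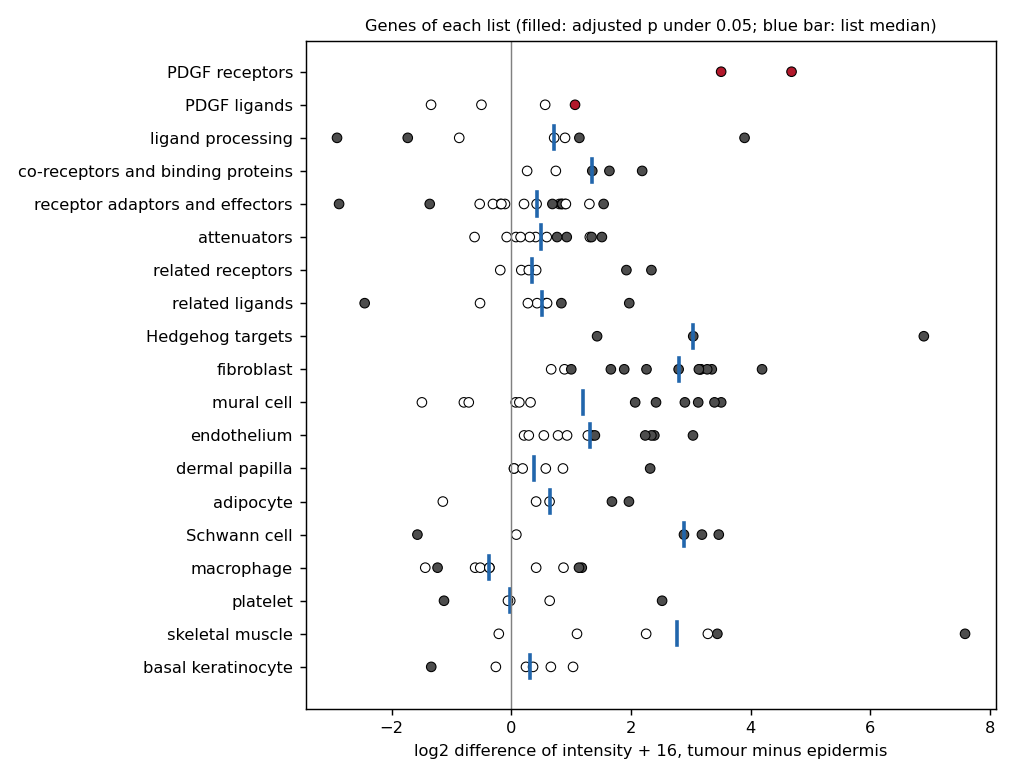
Difference of log2(intensity + 16), tumour minus epidermis, for each measured gene of the PDGF receptors, PDGF ligands, 7 pathway lists and 10 cell marker lists (1 point per gene; filled points have an adjusted p under 0.05 over all genes; blue bars are list medians). The receptors lie at 3.51 and 4.68, and the ligands between -1.34 and 1.06. The largest differences were 4.19 for fibroblast, 3.51 for mural cell, 3.47 for Schwann cell and 7.58 for skeletal muscle markers. They were 3.90 for ligand processing and 6.89 for Hedgehog targets.

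In the PDKC1 line, which holds carcinoma cells without tissue around them, the receptors were dim and Pdgfa and Pdgfc were bright. The representative Pdgfra set had 6.90 at 0 h, 39.5 at 6 h and 48.0 at 10 h, and that of Pdgfrb had 26.3, 3.60 and 22.3. Of the 5 receptor probe sets 4 were under the median probe set on all 3 arrays, and the fifth, Pdgfra 1421916_at, was over it only at 0 h (93.9, then 32.4 and 8.40). The untreated line thus gave 6.90 for Pdgfra and 26.3 for Pdgfrb, against 1068 and 3067, and 2116 and 1631, in the tumours. With 1 array per time this comparison has no replicate check, and tissue and line were labelled from different amounts of RNA. Of the 13 fibroblast markers 7 were under the median probe set on all 3 PDKC1 arrays and 6 were not. Col1a1 was at 37.5 to 46.9 and Col3a1 at 10.7 to 33.7, while Col6a1 was at 2535 to 3277 and Col5a1 at 1987 to 2454, against 2429 and 2962 for Col5a1 in the tumours. Col1a2 at 253 to 268, Postn at 118 to 195 and Dcn at 119 to 175 were also over the median. The mural marker Acta2, which contractile and cultured cells of other types express too, was at 20040 to 22868, while Rgs5 was at 1.30 to 22.8.

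For the ligands, Pdgfc had 1508 in PDKC1 at 0 h, 1160 at 6 h and 1274 at 10 h. Pdgfa had 843, 921 and 966 at the same times, under its epidermis values of 1184 and 1482 and its tumour values of 2362 and 3293. Both lay over the median probe set on all 3 arrays, as did their second probe sets. Pdgfb had 95.8, 14.7 and 36.2, against 421 to 657 in the tumours and 744 to 757 in the epidermis. The representative Pdgfd set had 6.20, 32.9 and 33.3, all under the median.

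After cyclopamine, 3 of the 6 members kept a shift of 2-fold or more at both 6 h and 10 h in their representative probe set: Pdgfb lower, and Pdgfra and Pdgfd higher. Of all genes 2.73% were so lower and 1.69% so higher. All 3 had dim signals: the representative sets of Pdgfra and Pdgfd were under the median probe set at every time, and Pdgfb exceeded it at 0 h alone. A filter that kept genes whose brightest PDKC1 array exceeded its median therefore removed Pdgfra and Pdgfd and kept Pdgfb only through the array where it was high, so that count is not read as support. For Pdgfb the 0 h value of intensity + 16 was 3.64 times that at 6 h and 2.14 times that at 10 h. Of the 11581 genes over that level 1.01% were at least 2-fold lower at both times and 0.924% at least 2-fold higher, and 3 members, Pdgfa, Pdgfb and Pdgfc, were among the 11581. The second Pdgfb set, 1450413_at, moved less, at 73.8, 56.2 and 57.1, or 1.24 and 1.23 times. The 0 h signal of the first set was just over the array median of 78.1, and with an offset of 64 or the mean of both sets the change did not reach 2-fold at both times. Without a replicate there is no test.

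Pdgfa and Pdgfc stayed within 1.5-fold of 0 h in every probe set and at both times. The log2 change at 6 h and 10 h was 0.13 and 0.19 for Pdgfa, and -0.37 and -0.24 for Pdgfc, where the median absolute change over all genes was 0.21 and 0.25. The 3 Pdgfra sets went different ways: 1421917_at changed by 1.28 and 1.48, 1438946_at by -0.51 and -0.64, and 1421916_at by -1.18 and -2.17. All of them were under the array median at 6 h and 10 h. The Pdgfd sets differed too: 1446691_at changed by 1.14 and 1.15, 1456532_at by -1.30 and 0.32, and 1426319_at by 0.86 and 0.71. On the same arrays Gli1, the Hedgehog readout, had 842 at 0 h, 193 at 6 h and 190 at 10 h, and Ptch1, the Hedgehog receptor and target, had 2185, 686 and 550. Hhip, the other measured target, had 240, 179 and 72.1, and so fell less by 6 h.

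**Figure D4:**
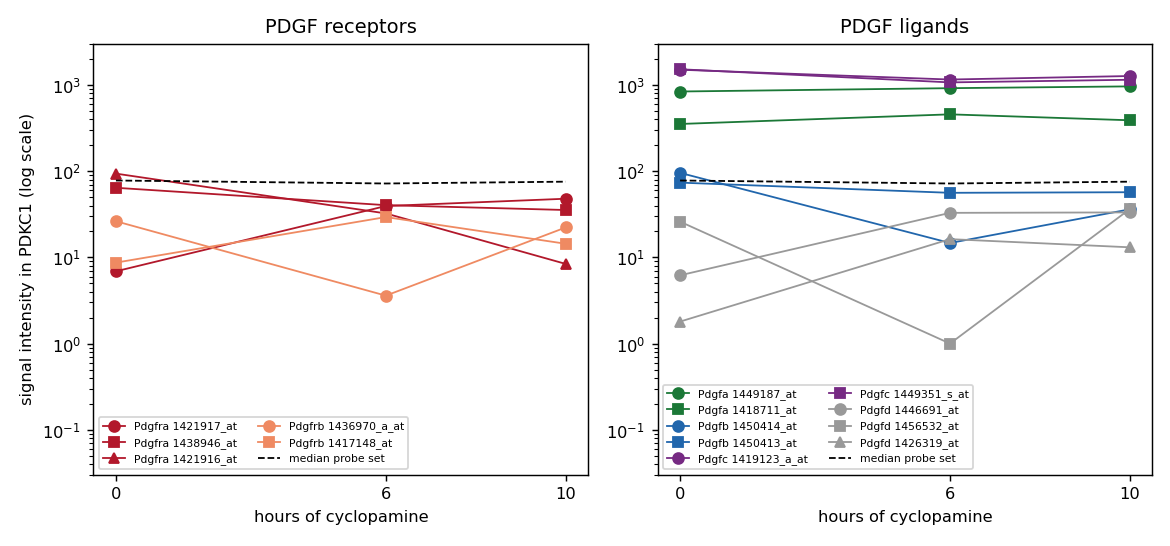
Signal intensity (log scale) of the receptor probe sets (left) and ligand probe sets (right) in PDKC1 against hours of cyclopamine, with 1 array per time; the dashed line is the median probe set of each array. Pdgfa and Pdgfc run level between 354 and 1528, Pdgfb 1450414_at lies at 95.8, 14.7 and 36.2, and the receptor sets stay at or under 93.9.

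The genes whose course over the 7 arrays was most like that of each member were found by the root mean square difference of log2 profiles, each centred on its own mean. For Pdgfrb they were Arhgap44 (0.38), Pcolce (0.40) and Hmcn1 (0.42), and 5 genes in all came within 0.5. For Pdgfra they were Dclk1 (0.47), Lpar1 (0.48) and Niban1 (0.53), with 2 genes within 0.5. The flatter profiles of the ligands had many more neighbours, 2344 within 0.5 for Pdgfa and 2537 for Pdgfc, so being near them says less. The nearest were Alkbh3 (0.06), Zfp810 (0.07) and Nsd1 (0.08) for Pdgfa, and Arrdc1 (0.10), 4930403D09Rik (0.14) and Gon4l (0.14) for Pdgfc. For Pdgfb they were Nat8l (0.26), Cd52 (0.30) and Clec4a3 (0.36), with 30 genes within 0.5, and for Pdgfd P2rx3 (0.16), 4930540E01Rik (0.17) and Alkbh3os1 (0.22), with 515. The measure is a description over 7 arrays of 5 conditions.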

How the data were processed

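Per the labels' protocols, total RNA was column-purified and biotinylated cRNA was hybridised to Affymetrix arrays. The authors deposited 1 linear signal intensity per probe set; the software that made it is not given in the sources used here. Each array's mean, without the lowest and highest 2% of probe sets, was 500.003 or 500.004, and no further normalization was applied. Of 45101 probe sets, 64 controls, 932 with several genes and 9160 without a gene were left out of the gene fit; symbols were updated through Entrez identifiers. Each gene was represented by its brightest probe set (mean log2 level, 7 arrays). Tumour arrays entered that choice, so it used values that were then tested.

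The 4 tissue arrays alone entered the two-sided test of tumour minus epidermis, run in limma 3.58.1 under R 4.3.3 with lmFit and trended eBayes. P-values were adjusted by Benjamini-Hochberg across every gene, or every non-control probe set, and called under 0.05. The code was tested on simulated data. Alternatives were quantile normalization, median centring, offsets of 4 and 64, a filter on low levels, no variance trend, a replicate block, the mean of a gene's probe sets, all 7 arrays in 1 fit and leaving out each array. PDKC1, with 1 array per time, was compared by fold without a test. Of 145 entries in 17 lists 138 were measured. Named genes were every member, up to 3 called genes of a list by size, all Hedgehog targets and the 3 nearest profiles; Acta2, Col1a2, Col3a1, Col5a1, Col6a1, Dcn, Mcam, Notch3, Plat and Postn were named after their values were seen. The members and lists were chosen with earlier results of these data known. Replicate numbers were not used as a pairing in the main fit, since no label ties them across tissues.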

Additional observations from a re-analysis of the deposited data

How the results depend on the processing

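The receptor calls held under all 13 alternatives to the gene fit: Pdgfrb differed by 3.14 (mean of all probe sets) to 4.93 (offset 4), and Pdgfra by 2.20 to 4.26. Left-out arrays gave 4.48 to 4.88 for Pdgfrb, 2.75 to 4.26 for Pdgfra, 0.83 to 1.30 for Pdgfa, -0.81 to -0.19 for Pdgfb, 0.22 to 0.91 for Pdgfc and -1.62 to -1.06 for Pdgfd. Members called higher then numbered 2 to 4 and lower 0 to 1, and probe sets 2 to 6 and 0 to 2. Pdgfa was not called with median centring (0.32) or without a variance trend (1.06, adjusted p = 0.0729). Centring called Pdgfb (-1.22) and Pdgfd (-1.69) lower and reversed Pdgfc (-0.18; probe set 1419123_a_at likewise) and Pdgfa 1418711_at (-0.091). It gave 2 members and 3 probe sets lower, and 2 probe sets higher. Quantile normalization called Pdgfd (-1.62), giving 1 member lower and 3 probe sets higher. Pdgfd 1456532_at (0.24) turned to -0.023 with quantile normalization, -0.16 with centring and spanned -0.36 to 0.84 with arrays left out. The cause was not tested, except that centring lowers tumour relative to epidermis by construction, the tumour medians being higher. Leaving out genes of low level removed Pdgfd, which then has no value. In PDKC1, 0 members were lower with an offset of 64 or the mean of probe sets, and 2 (Pdgfra and Pdgfd) were higher with no filter on level. With a replicate block Pdgfra differed by 3.51 (adjusted p = 0.000625) and Pdgfa by 1.06 (adjusted p = 0.0143); the block changed no call of a member. Deviations of same-numbered arrays correlated at -0.000636 over genes. With 2 arrays per tissue this cannot decide whether same-numbered samples were paired, and no label pairs them. Fibroblast markers called higher numbered 7 to 13 and endothelial ones 1 to 7 over the alternatives run.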
